A study of Mus musculus with 12 samples.

Results

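The genes described here run mitosis, the separation of the copied chromosomes into 2 daughter cells, and were followed in mouse bone marrow-derived dendritic cells exposed to nanoparticles of poly(γ-glutamic acid) (γ-PGA), a biodegradable polymer. A list of 42 mitosis and chromosome segregation genes was taken, and a probe counted for a gene where its RefSeq accession mapped to the gene's symbol. Such a probe was found for 39 of the 42 genes, all 39 passed the filter on dim probes, and they are read here among 18407 entries in all, called genes below. Of these, 11580 had a RefSeq symbol and the others were kept under the accession or probe name of the array. Cenpf, a kinetochore protein, Mki67, the proliferation antigen Ki-67, and Ncapg, a condensin subunit, were not matched to a probe. They stay out of the expression results, and their promoters are counted below.

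Marrow of female mice aged 6 to 8 weeks was grown with 20 ng/ml of the growth factor GM-CSF, and the non-adherent or loosely adherent cells of day 7 served as immature dendritic cells. All exposed groups received γ-PGA nanoparticles at 300 µg/ml for 6, 12 or 24 h, and the group labelled 0 h stood for the start. The mouse strain and the number of mice behind a culture are not given in the sources used here. There were 4 groups with 3 samples apiece on 1-colour Agilent arrays, and the series calls the 3 independent experiments. Unexposed cells cultured for the same hours are not analysed here, so exposure and time in culture cannot be told apart. Of the 10 dendritic cell markers examined, all 10 had a kept probe and were above background on every array at 0 h, and their summed level was 620 to 643 times the 75th percentile signal of the array at 0 h, 618 to 691 at 6 h, 664 to 728 at 12 h and 619 to 636 at 24 h. At 6 h and at 12 h, 8 of the 10 were above background on every array. By the scanner 1 marker was called lower (Cd209a) and 1 higher (Zbtb46, 1.14 and 1.23). The lowest log2 change of the 10 was -3.20 and -3.26. Of all genes, 15.9% and 16.9% were called lower, and 10.2% and 13.7% higher. In the authors' value table, described below, the 10 ran from -6.63 to 1.81 at 6 h and from -6.16 to 4.38 at 24 h. At 24 h it called 2 lower (13.0% of all genes) and 1 higher (2448 of 18407).

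A cell enters mitosis when cyclin-dependent kinase 1 is switched on by its cyclins. Kinetochores then attach chromosomes to spindle microtubules, a checkpoint holds the anaphase-promoting complex back until every chromosome is attached, and cytokinesis splits the cell. Genes of these steps are transcribed late in the cell cycle under the MuvB complex with B-MYB and FOXM1, and precursors that divide in GM-CSF cultures express them while mature dendritic cells largely do not divide.

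Sequences before the start sites are shown because most of the 39 genes were lower together at 6 h and 12 h and because the DNA elements that MuvB and the factor NF-Y are known to use can be read in them. The sequences run 5′ to 3′ along the strand of the gene over the 250 bases before the start, from RefSeq on mouse assembly GRCm38.p6. Capitals mark TTTGAA or TTCGAA, the letters of the cell cycle genes homology region, and CCAAT, the NF-Y letters, each read on either strand (TTCAAA and ATTGG on the other). They belong to 4 genes whose 250 bases hold both and which had large scanner falls at 6 h, and Ect2, which also holds both and fell as much as Cdc20 (3.03-fold each), is not shown.
Kif11, chr19:37376132-37376381, plus strand: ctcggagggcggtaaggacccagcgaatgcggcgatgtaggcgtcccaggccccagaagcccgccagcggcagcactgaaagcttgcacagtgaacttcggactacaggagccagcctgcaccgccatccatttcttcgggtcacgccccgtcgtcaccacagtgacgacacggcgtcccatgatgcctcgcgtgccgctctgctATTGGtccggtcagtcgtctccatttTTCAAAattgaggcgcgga
Ccnb2, chr9:70421555-70421804, minus strand: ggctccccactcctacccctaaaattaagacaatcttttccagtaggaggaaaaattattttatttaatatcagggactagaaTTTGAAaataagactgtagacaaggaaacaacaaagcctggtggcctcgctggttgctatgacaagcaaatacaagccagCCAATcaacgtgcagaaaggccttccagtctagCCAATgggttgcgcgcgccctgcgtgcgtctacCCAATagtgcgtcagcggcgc
Kif22, chr7:127042421-127042670, minus strand: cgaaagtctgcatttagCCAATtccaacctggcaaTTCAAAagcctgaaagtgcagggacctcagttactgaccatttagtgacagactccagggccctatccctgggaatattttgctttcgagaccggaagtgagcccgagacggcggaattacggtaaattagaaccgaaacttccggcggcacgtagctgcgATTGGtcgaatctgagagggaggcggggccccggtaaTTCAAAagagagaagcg
Cdc20, chr4:118437344-118437593, minus strand: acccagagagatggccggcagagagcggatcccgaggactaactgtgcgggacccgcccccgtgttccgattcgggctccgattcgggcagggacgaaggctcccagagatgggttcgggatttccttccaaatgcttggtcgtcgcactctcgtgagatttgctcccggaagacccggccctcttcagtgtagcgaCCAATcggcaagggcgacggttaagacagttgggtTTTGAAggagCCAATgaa

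Kif11, Kif22 and Cdc20 carried the first motif 19, 17 and 18 bases before the start, counted to its first base, and Ccnb2 carried it 167 bases before. CCAAT stood in 3 places before Ccnb2, beginning 87, 54 and 21 bases upstream. The promoter table held 35 of the 42 genes, among them Cenpf, Mki67 and Ncapg, which have no expression value here. Over the window from 250 bases before to 50 bases after the start, TTTGAA or TTCGAA was present for 27 of these 35 genes (77.1%) against 21.7% of all 27025 genes of the table. CCAAT was present for 26 (74.3%) against 41.1%, and both for 24 (68.6%) against 8.61%. In the 250 bases before the start alone, both were present for 13 of the 35 genes (37.1%) against 7.0%, and 17 (48.6%) held CCAAT at least 2 times against 11.5%. Of the 32 genes with an entry and a kept probe, both were present for 21 (65.6%) in the longer window and 11 (34.4%) in the shorter. Of all 9335 genes with a symbol, an entry and a kept probe, both were present for 7.18% and 5.97%. For 97 other mitotic genes with an entry, from lists counted below, both motifs were present for 31 (32.0%) in the longer window and 19 (19.6%) in the shorter. For 41 DNA replication genes with an entry, both motifs were present for 6 (14.6%) in the longer window. A match is a run of letters and not a measured binding site, and whether the motifs are related to the falls was not tested.

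The arrays gave 2 sources of values for the same samples. The scanner source is the processed signal of each array, given here as a log2 level relative to the 75th percentile of the array, and levels of different probes are not compared. The value table holds the authors' ratios, which divide each probe by its own 0 h median. Between 50.9% and 59.6% of spots were well above background, and 6 h replicate 2 had 628 outlier spots against at most 42 on any other array, which left Aurka and Incenp with 2 scanner values at 6 h. The sources parted most from each other against 0 h at 24 h, and they also parted between 6 h and 12 h. The scanner arrays labelled 24 h correlated with those at 0 h at a mean r of 0.991 over 18407 genes, close to the 0.995 among the 0 h arrays, and with those at 12 h at 0.91. In the value table, the changes at 24 h correlated with those at 12 h at 0.896. Across genes, the changes of the 2 sources correlated at 0.73 for 6 h, 0.54 for 12 h and -0.07 for 24 h, all with 0 h as the start, as a description since genes are not independent replicates. The changes from 6 h to 12 h correlated at -0.14, and those from 12 h to 24 h at 0.38. Values at 24 h are therefore given for each source on its own, and the cause of the difference was not tested. Slide 1 carried the 0 h arrays and 1 array of 6 h, slide 2 carried 2 arrays of 6 h and 2 of 12 h, and slide 3 carried 1 array of 12 h and the 24 h arrays.

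Most of the mitotic genes were called lower than at 0 h at 6 h and 12 h of exposure by the scanner, and at 12 h in the table. By the scanner values, 35 of 39 were called lower at 6 h and 35 at 12 h, against 15.9% and 16.9% of all genes, and none was called higher, against 10.2% and 13.7% of all genes. Anln, Hmmr and Ttk passed the filter on dim probes only through 0 h and 24 h, where they were high. With only probes well above background on every array, 32 of 36 were called lower at each time. Of all genes under that filter, 13.1% and 14.6% were. A call is an adjusted p under 0.05 (limma, Benjamini-Hochberg over all 18407 genes) with a change of at least 2-fold. The median log2 change of the 39 genes was -1.6 at 6 h and -1.96 at 12 h, beside -0.06 and -0.03 over all genes. In the value table, 12 of 39 were called lower at 6 h (11.8% of all genes) and 37 at 12 h (12.1%), with medians of -0.78 and -1.9, and none higher, where 13.3% and 15.7% of all genes were. The table's median over all genes was 0.14 at 6 h, 0.22 at 12 h and 0.12 at 24 h, so the members' medians stand that much further below the other genes. All 12 genes called at 6 h in the table and 35 of the 37 called at 12 h were also called lower by the scanner. Every 6 h sample with a value was below every 0 h sample for 38 of 39 members by the scanner (41.5% of all genes) and 37 in the table (31.3%). Every 12 h sample was for 38 (41.4%) and 39 (28.7%). The arrays measure RNA from whole cultures, in which fewer dividing cells and less RNA per cell cannot be told apart.

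**Figure D1:**
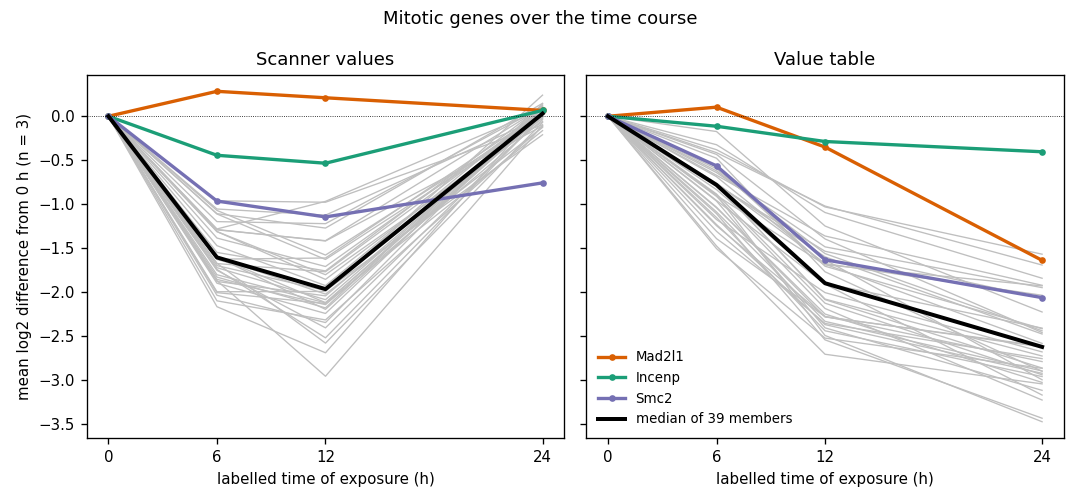
Mean log2 difference from 0 h (vertical axis, n = 3 samples per time, 2 for Incenp and Aurka at 6 h in the scanner values) against the labelled time in hours for 39 mitotic genes (grey lines) in each source, with the median in black and 3 genes in colour. The scanner median is -1.6 at 6 h, -1.96 at 12 h and 0.03 at 24 h, and the value table median is -0.78, -1.9 and -2.62.

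No library decided these counts. With each sample left out in turn, 35 to 37 members were called at 6 h and 35 at 12 h by the scanner, and 10 to 13 and 35 to 37 in the table. At 6 h the table count of 12 moved to 18 with each column centred on its median and to 8 after quantile normalization. With the slide as a block, 34 and 35 were called by the scanner, and within slide 1, which sets 6 h replicate 1 against the 0 h arrays, 34 were called at 6 h. No slide held both 0 h and 12 h arrays or both 0 h and 24 h arrays.

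Calls of single genes depended on the background correction and on values near 2-fold. With normexp on the median signal in place of the scanner's processed signal, an alternative chosen after seeing the data, 4 genes fell short of 2-fold at both 6 h and 12 h. They were Anln (-0.89 and -0.61), Cdc25c (-0.89 and -0.91), Hmmr (-0.74 and -0.71) and Ttk (-0.72 and -0.47), and Cdk1 did so at 6 h (-0.94). The same correction took the rise from 12 h to 24 h under 2-fold for these 4 genes (0.55, 0.94, 0.45 and 0.33) and for Cenpe (0.97). In the table at 6 h, Hmmr fell short without 0 h replicate 3 (-0.95) or 6 h replicate 2 (-0.97), and Plk1 without 6 h replicate 3 (-0.98). At 12 h Bub1 did so without 0 h replicate 3 (-0.99) or 12 h replicate 2 (-0.97), and Cdca8 without 0 h replicate 3 (-0.97) or 12 h replicate 3 (-0.99). After quantile normalization, the table calls of Ccna2 (-0.97), Cdc25c (-0.85), Plk1 (-0.95), Kif23 (-0.94) and Kif11 (-1.34, adjusted p = 0.112, limma) were lost at 6 h, and those of Bub1 (-0.72), Cenpa (-0.68) and Ube2c (-0.98) at 12 h.

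Of the genes that start mitosis, all 7 were called lower at 6 h and at 12 h by the scanner, with a median log2 change of -1.31 and -1.76. These are the kinase Cdk1, its cyclins Ccna2, Ccnb1 and Ccnb2, the phosphatase Cdc25c that activates it, the transcription factor Foxm1 and the kinase Melk. In the value table, 2 of 7 were called lower at 6 h, Ccna2 (-1.23, SE 0.08) and Cdc25c (-1.15, SE 0.10), and all 7 at 12 h.
Cyclin B2 (Ccnb2), whose protein binds Cdk1, had scanner log2 levels of 5.13, 5.11 and 5.11 at 0 h, 3.22, 3.20 and 3.24 at 6 h, 2.83, 2.91 and 2.89 at 12 h and 5.19, 5.20 and 5.25 at 24 h.
Its value table ratios were 0.989, 1 and 1 at 0 h, 0.541, 0.51 and 0.491 at 6 h, 0.268, 0.291 and 0.24 at 12 h and 0.109, 0.111 and 0.112 at 24 h.
The 0 h samples lay above all 6 h and 12 h samples in both sources, and only the table put 24 h below them. At 6 h the scanner level was 3.72-fold lower (log2 change -1.90, SE 0.04, adjusted p = 4e-11, limma).
Cdk1, the kinase that drives entry into mitosis, had the smallest scanner fall of this group at 6 h, with log2 levels of 1.88, 1.93 and 1.88 at 0 h, 0.91, 0.77 and 0.85 at 6 h, 0.75, 0.77 and 0.80 at 12 h and 1.92, 1.90 and 1.85 at 24 h.
Its ratios in the table were 0.969, 1 and 1.04 at 0 h, 0.574, 0.52 and 0.517 at 6 h, 0.313, 0.31 and 0.312 at 12 h and 0.271, 0.254 and 0.266 at 24 h.
The Cdk1 change was -1.05 (SE 0.04) at 6 h and -1.12 (SE 0.04) at 12 h by the scanner, and with the slide as a block it was -0.99 at 6 h, short of 2-fold. The table gave -0.90 and -1.68. Foxm1 itself, which is known to activate many of the other genes listed here, was -1.29 (SE 0.06) by the scanner at 6 h.

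Of the kinases and partners that build the spindle (Plk1, Aurka, Tpx2 and Hmmr), 3 of 4 were called lower at 6 h and at 12 h by the scanner, all but Tpx2, and 2 of 4 and then all 4 in the table.
Polo-like kinase 1 (Plk1), which acts in centrosome maturation and spindle assembly, had scanner log2 levels of 3.52, 3.50 and 3.46 at 0 h, 1.71, 1.52 and 1.62 at 6 h, 1.40, 1.47 and 1.49 at 12 h and 3.49, 3.49 and 3.59 at 24 h.
In the table its ratios were 0.992, 1 and 1.03 at 0 h, 0.543, 0.481 and 0.452 at 6 h, 0.22, 0.222 and 0.197 at 12 h and 0.12, 0.126 and 0.127 at 24 h.
The 0 h samples did not overlap with the 6 h or 12 h samples in either source, and the change at 6 h was -1.88 (SE 0.06) by the scanner and -1.04 (SE 0.07) in the table.
Tpx2, which binds and activates the kinase Aurora A, stood in the scanner files at log2 levels of 1.69, 1.67 and 1.74 at 0 h, 0.86, 0.62 and 0.74 at 6 h, 0.75, 0.67 and 0.75 at 12 h and 1.59, 1.61 and 1.61 at 24 h.
The table listed it at ratios of 0.948, 1 and 1.08 at 0 h, 0.708, 0.618 and 0.617 at 6 h, 0.357, 0.377 and 0.347 at 12 h and 0.252, 0.262 and 0.27 at 24 h.
Its scanner values at 6 h and 12 h were below all 0 h values, yet the change of -0.96 and -0.97 did not reach 2-fold (SE 0.06 at both). Hmmr, a microtubule-binding protein of the spindle, was not well above background on any array at 12 h, so its fall there was set against a floor. The floor is the higher of the probe's own signal and the lowest signal called well above background, and against it the fall was 4.89-fold. As that lowest signal comes from any probe, this is no firm bound, and normexp on the median signal gave a log2 change of -0.71.

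The 4 measured genes of the centromere and kinetochore were all called lower at 6 h and 12 h by the scanner (median -1.68 and -1.97). In the table only Nuf2 was called at 6 h (-1.08, SE 0.07) and all 4 at 12 h. Cenpa is the histone variant that marks centromeres, Cenpe a kinetochore motor, and Ndc80 and Nuf2 subunits of the complex that grips microtubules.
Cenpe had scanner log2 levels of -0.79, -0.77 and -0.71 at 0 h, -2.70, -2.65 and -2.93 at 6 h, -2.87, -2.75 and -3.03 at 12 h and -0.92, -0.95 and -0.89 at 24 h.
Its table ratios were 0.973, 1.11 and 1 at 0 h, 0.687, 0.52 and 0.471 at 6 h, 0.154, 0.226 and 0.175 at 12 h and 0.0791, 0.11 and 0.091 at 24 h.
All 3 Cenpe values at 6 h and at 12 h were below those at 0 h in both sources. The scanner change at 6 h was -2.0 (SE 0.09, adjusted p = 9.73e-09, limma).
Nuf2, the least changed of the 4 at 6 h by the scanner and the most changed in the table, stood at scanner log2 levels of 1.91, 2.04 and 2.00 at 0 h, 0.38, 0.31 and 0.38 at 6 h, 0.06, 0.08 and -0.08 at 12 h and 1.98, 1.96 and 1.96 at 24 h.
Its deposited ratios were 1, 0.971 and 1.03 at 0 h, 0.515, 0.443 and 0.465 at 6 h, 0.208, 0.204 and 0.185 at 12 h and 0.136, 0.132 and 0.137 at 24 h.
Nuf2 still fell by 1.63 on the log2 scale at 6 h by the scanner, with an SE of 0.05.

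**Figure D2:**
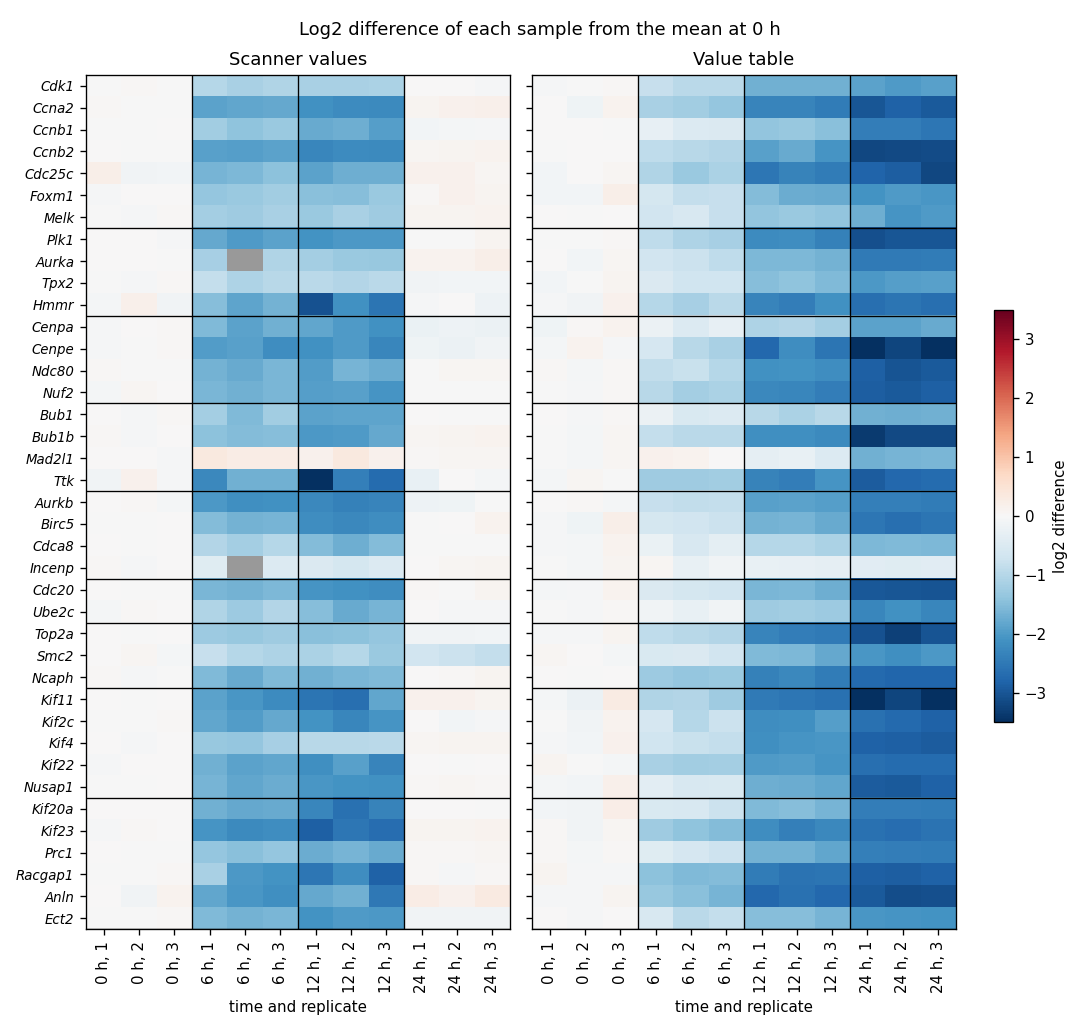
Log2 difference of each sample (columns, 3 per time) from the mean at 0 h for each mitotic gene (rows), in the scanner values on the left and the value table on the right, with blue for lower, red for higher, and grey for a missing spot. Black lines part the groups of genes by role in the order of the text, and Mad2l1 and Incenp stay pale in the scanner panel at 6 h and 12 h while the scanner columns at 24 h look like those at 0 h.

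The spindle checkpoint genes split. Bub1, Bub1b and Ttk were called lower at 6 h and 12 h by the scanner, while Mad2l1, which encodes MAD2, the checkpoint protein that binds Cdc20, was not called in either direction at 6 h or 12 h in either source.
Ttk, the kinase MPS1 at the top of the checkpoint, was dim, with scanner log2 levels of -3.17, -2.90 and -3.10 at 0 h, -5.30, -4.74 and -4.73 at 6 h, -6.83, -5.45 and -5.75 at 12 h and -3.33, -3.03 and -3.12 at 24 h.
In the value table it stood at 0.969, 1.05 and 1 at 0 h, 0.42, 0.423 and 0.429 at 6 h, 0.198, 0.188 and 0.239 at 12 h and 0.133, 0.151 and 0.154 at 24 h.
No 6 h or 12 h array called the Ttk probe well above background, and the 12 h values spread widely. Set against a floor as for Hmmr, the scanner falls were 2.51-fold at 6 h and 3.05-fold at 12 h. These too are no firm bounds, and normexp on the median signal gave log2 changes of -0.72 and -0.47. In the table the fall was 2.37-fold at 6 h and 4.85-fold at 12 h.
Mad2l1 had scanner log2 levels of 1.11, 1.10 and 1.06 at 0 h, 1.44, 1.34 and 1.34 at 6 h, 1.23, 1.43 and 1.24 at 12 h and 1.14, 1.16 and 1.17 at 24 h.
Its ratios were 1, 0.976 and 1.07 at 0 h, 1.14, 1.11 and 1.03 at 6 h, 0.811, 0.844 and 0.734 at 12 h and 0.319, 0.327 and 0.332 at 24 h.
Its scanner values at 6 h and 12 h were all above those at 0 h, the only member of the 39 of which this held. The change was 0.28 (SE 0.06, adjusted p = 0.00116, limma) at 6 h, under 2-fold. In the table it was 0.10 (SE 0.07, adjusted p = 0.194, limma) at 6 h, -0.35 (SE 0.07) at 12 h and -1.64 (SE 0.07) at 24 h, where it was called lower.

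Within the chromosomal passenger complex, 3 of 4 subunits were called lower at 6 h and at 12 h by the scanner, and in the table none at 6 h and 3 at 12 h. The complex corrects wrong attachments of chromosomes and comprises the kinase Aurkb with Birc5 (survivin), Cdca8 (borealin) and the scaffold Incenp.
Aurkb had scanner log2 levels of 1.16, 1.20 and 1.09 at 0 h, -0.87, -1.01 and -0.96 at 6 h, -1.11, -1.22 and -1.16 at 12 h and 0.97, 1.00 and 1.13 at 24 h.
Its table ratios stood at 1, 1.04 and 0.961 at 0 h, 0.573, 0.547 and 0.56 at 6 h, 0.266, 0.273 and 0.264 at 12 h and 0.189, 0.191 and 0.184 at 24 h.
The Aurkb change of -2.09 (SE 0.06) at 6 h was the second largest scanner fall of the 39 genes at that time, after Kif23, and in the table it was -0.84 (SE 0.04), short of 2-fold.
Incenp, the scaffold, had scanner log2 levels of 5.45, 5.37 and 5.42 at 0 h, 5.00 and 4.94 at 6 h, 4.92, 4.79 and 4.93 at 12 h and 5.44, 5.49 and 5.51 at 24 h.
The table gave it ratios of 1, 0.965 and 1.09 at 0 h, 1.05, 0.843 and 0.93 at 6 h, 0.847, 0.831 and 0.825 at 12 h and 0.778, 0.753 and 0.771 at 24 h.
Incenp was lower on the 2 arrays with a value at 6 h and on every 12 h array than on any 0 h array. Its log2 change was -0.44 (SE 0.06) and -0.54 (SE 0.05), and Incenp was not called. In the table it was -0.12, -0.29 and -0.41 at 6, 12 and 24 h (SE 0.08 each), the only member not called lower at any time there. Birc5, by contrast, was called lower by the scanner at -1.60 (SE 0.05) and -2.19 (SE 0.05). The difference between Incenp and its partners was not tested.

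**Figure D3:**
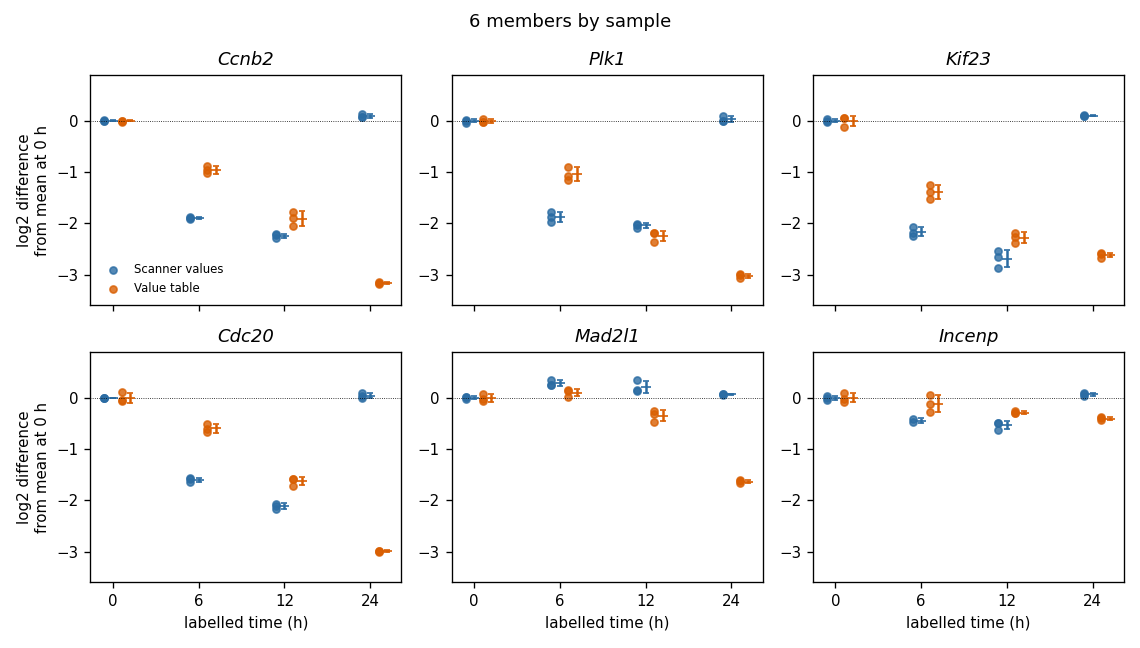
Log2 difference of each sample from the mean at 0 h (vertical axis) for 6 mitotic genes at each labelled time in hours, scanner values in blue and value table in orange, with the mean and SD of the samples beside the points. Ccnb2, Plk1, Kif23 and Cdc20 lie below 0 at 6 h and 12 h in both sources, and at 24 h the scanner points return to 0 while the table points do not.

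Both partners of the anaphase-promoting complex were called lower by the scanner at 6 h and 12 h, and in the table only at 12 h of these times. Cdc20 is the activator that the checkpoint restrains, and Ube2c is the ubiquitin-conjugating enzyme of the complex.
Cdc20 had scanner log2 levels of 4.89, 4.88 and 4.88 at 0 h, 3.29, 3.24 and 3.32 at 6 h, 2.82, 2.77 and 2.71 at 12 h and 4.92, 4.88 and 4.97 at 24 h.
Table ratios of Cdc20 were 0.984, 1 and 1.12 at 0 h, 0.728, 0.677 and 0.65 at 6 h, 0.344, 0.346 and 0.315 at 12 h and 0.132, 0.131 and 0.129 at 24 h.
Between 6 h and 12 h the change was -0.52 (SE 0.04) by the scanner and -1.03 (SE 0.07) in the table, and the samples of the 2 times did not overlap in either source.
Ube2c had scanner log2 levels of 2.80, 2.92 and 2.89 at 0 h, 1.82, 1.61 and 1.85 at 6 h, 1.38, 1.10 and 1.25 at 12 h and 2.87, 2.84 and 2.82 at 24 h.
The value table put it at 1, 0.986 and 1.04 at 0 h, 0.919, 0.839 and 0.917 at 6 h, 0.424, 0.434 and 0.416 at 12 h and 0.207, 0.233 and 0.207 at 24 h.
At 6 h its scanner change was -1.11 (SE 0.08) and its table change -0.18 (SE 0.06), the smallest table fall of the called scanner genes.

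Of the genes for chromosome structure, Ncaph, a condensin subunit, and Top2a, the enzyme that untangles DNA, were called lower at 6 h by the scanner, and Smc2, a core condensin subunit, was called at 12 h (-1.15, SE 0.09) and not at 6 h (-0.97, SE 0.09). In the table, 1 of 3 was called at 6 h, Ncaph, and all 3 at 12 h.
Ncaph had scanner log2 levels of 0.27, 0.17 and 0.21 at 0 h, -1.34, -1.55 and -1.33 at 6 h, -1.47, -1.37 and -1.34 at 12 h and 0.23, 0.26 and 0.32 at 24 h.
Its deposited ratios stood at 1, 0.979 and 1.01 at 0 h, 0.411, 0.392 and 0.403 at 6 h, 0.194, 0.208 and 0.183 at 12 h and 0.152, 0.145 and 0.147 at 24 h.
Its change was -1.63 (SE 0.07) at 6 h and -1.61 (SE 0.07) at 12 h by the scanner, and -1.31 (SE 0.05) and -2.35 (SE 0.05) in the table.
Smc2 had scanner log2 levels of 0.53, 0.59 and 0.47 at 0 h, -0.28, -0.48 and -0.54 at 6 h, -0.59, -0.48 and -0.77 at 12 h and -0.14, -0.23 and -0.31 at 24 h.
Its value table ratios ran at 1.03, 1 and 0.933 at 0 h, 0.683, 0.698 and 0.623 at 6 h, 0.339, 0.335 and 0.284 at 12 h and 0.242, 0.222 and 0.247 at 24 h.
Smc2 was the only one of the 39 genes whose scanner level at 24 h differed from 0 h at an adjusted p under 0.05 (-0.76, SE 0.09, adjusted p = 0.00562, limma), below 2-fold. That value came from the brightest of 4 kept Smc2 probes, and the other 3 gave -0.07, -0.33 and -0.09 at 24 h. With the slide as a block the 12 h value was -0.84, short of 2-fold.

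All 5 spindle motors and microtubule binders were called lower at 6 h by the scanner and 4 at 12 h, all but Kif4 (-0.96, SE 0.05), with medians of -1.80 and -2.12. Kif4 was called at 12 h with the slide as a block (-1.04) or with the median over its probes (-1.02). In the table, 2 were called at 6 h, Kif11 and Kif22, and all 5 at 12 h. Kif11 is the kinesin that pushes spindle poles apart, Kif2c a microtubule depolymerase, Kif4 and Kif22 are chromosome-arm kinesins, and Nusap1 bundles microtubules near chromosomes.
Kif11 had scanner log2 levels of -1.03, -1.05 and -1.04 at 0 h, -2.90, -3.07 and -3.25 at 6 h, -3.61, -3.67 and -2.87 at 12 h and -0.90, -0.89 and -0.95 at 24 h.
Its ratios in the value table stood at 1, 0.912 and 1.28 at 0 h, 0.511, 0.512 and 0.444 at 6 h, 0.191, 0.182 and 0.171 at 12 h and 0.0903, 0.114 and 0.0905 at 24 h.
At 6 h it was 4.1-fold lower by the scanner (log2 change -2.04, SE 0.18). The table change was -1.11 (SE 0.13), and leaving out 0 h replicate 3 gave -0.97, under 2-fold.
Kif4 had scanner log2 levels of 1.27, 1.21 and 1.25 at 0 h, -0.08, -0.11 and 0.08 at 6 h, 0.26, 0.28 and 0.29 at 12 h and 1.31, 1.33 and 1.33 at 24 h.
Table ratios of Kif4 stood at 1, 0.963 and 1.15 at 0 h, 0.633, 0.604 and 0.579 at 6 h, 0.233, 0.247 and 0.252 at 12 h and 0.147, 0.143 and 0.138 at 24 h.
The sources differed in course: the scanner values at 12 h were above all those at 6 h, by 0.32 (SE 0.05), while the table values at 12 h were below all those at 6 h, by a log2 change of -1.31 (SE 0.07).

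The 6 genes of the spindle midzone and cytokinesis were all called lower at 6 h and 12 h by the scanner, with medians of -1.75 and -2.21, and 3 and then all 6 in the table. Kif20a and Kif23 are midzone kinesins, Prc1 cross-links the midzone microtubules, Racgap1 pairs with Kif23 in centralspindlin, Ect2 activates RhoA at the furrow, and Anln (anillin) scaffolds the contractile ring.
Kif23 had scanner log2 levels of 1.42, 1.48 and 1.45 at 0 h, -0.62, -0.79 and -0.73 at 6 h, -1.42, -1.08 and -1.21 at 12 h and 1.54, 1.55 and 1.57 at 24 h.
Its value table ratios stood at 1, 0.89 and 1.01 at 0 h, 0.403, 0.367 and 0.337 at 6 h, 0.211, 0.184 and 0.201 at 12 h and 0.158, 0.152 and 0.161 at 24 h.
At 6 h Kif23 had the largest scanner fall of the 39 genes, 4.49-fold (log2 change -2.17, SE 0.08, adjusted p = 2.94e-09, limma), and at 12 h it was 6.43-fold lower.
Prc1, the least changed of the 6 at 6 h in both sources, had scanner log2 levels of 3.25, 3.23 and 3.21 at 0 h, 1.88, 1.78 and 1.88 at 6 h, 1.49, 1.60 and 1.48 at 12 h and 3.27, 3.27 and 3.29 at 24 h.
In the table Prc1 stood at 1.01, 0.924 and 1 at 0 h, 0.731, 0.655 and 0.59 at 6 h, 0.313, 0.31 and 0.279 at 12 h and 0.185, 0.185 and 0.18 at 24 h.
Prc1 changed by -1.39 (SE 0.04) at 6 h by the scanner. Racgap1 varied most among replicates at 6 h, with scanner log2 levels of -1.44, -2.31 and -2.40 against -0.33, -0.33 and -0.27 at 0 h, and its 3 table ratios there were close, 0.377, 0.354 and 0.356.

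Values between 6 h and 12 h differed with the source. By the scanner, 1 of 39 genes was called lower at 12 h than at 6 h, Ttk (-1.09, SE 0.31), beside 2.1% of all genes, and the median change was -0.31. Ttk was not well above background on any array at either time, and its change turned to 0.26 under another background correction. Without 12 h replicate 1 it was -0.68, without 6 h replicate 3 it was also just under 2-fold, and within slide 2 it was -1.41 (adjusted p = 0.121, limma). In the table, 22 of 39 were called lower, beside 2.73% of all genes, with a median of -1.03, and after quantile normalization of the table, 1 was called. At 6 h the scanner fall was larger than the table fall for 38 of 39 genes, and at 12 h for 19 of 39.

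At 24 h the scanner called none of the 39 genes changed against 0 h, where 0.837% of all genes (154) were called and 0.141% were called lower. Without any 1 array of 0 h or 24 h, 24 to 48 of all genes were called, and with the slide as a fixed or random block 23 or 10. The median log2 change was 0.03, and 7 members had an unadjusted p under 0.05 in limma. The largest difference was 1.69-fold, that of Smc2. In the table, 38 of 39 were called lower than at 0 h, beside 13.0% of all genes, all but Incenp, with a median of -2.62. The lowest there, by the brightest probe of each gene, were Cenpe (11.1-fold, -3.47, SE 0.18), Kif11 (10.8-fold, -3.43, SE 0.13), Bub1b (-3.22, SE 0.07) and Ccnb2 (8.99-fold, -3.17, SE 0.07). This order depended on the probe. Another kept Cenpe probe gave -2.39, and a dimmer Top2a probe gave -3.58 where the brightest gave -3.11. The table mean of 38 of 39 genes was lower at each later time, Mad2l1 being the exception with its ratio above 1 at 6 h.

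Against 12 h, the scanner called 35 of 39 genes higher at 24 h (18.2% of all genes), and the table called 6 lower (3.17%), namely Cdc20, Mad2l1, Ccnb2, Nusap1, Ccnb1 and Bub1b, of which none was called after quantile normalization of the table. Without 24 h replicate 1, Bub1b fell short of 2-fold (-0.98). The calls of 5 genes were opposite between sources, those of Bub1b, Ccnb1, Ccnb2, Cdc20 and Nusap1.
Bub1b, a checkpoint kinase-like protein, had scanner log2 levels of 1.06, 0.99 and 1.03 at 0 h, -0.40, -0.48 and -0.45 at 6 h, -0.97, -0.96 and -0.76 at 12 h and 1.10, 1.12 and 1.16 at 24 h.
Its table ratios ran at 1, 0.957 and 1.07 at 0 h, 0.564, 0.524 and 0.521 at 6 h, 0.226, 0.226 and 0.213 at 12 h and 0.0992, 0.113 and 0.112 at 24 h.
The 12 h samples of Bub1b were the lowest by the scanner, and the 24 h samples were the lowest in the table.
Cyclin B1 (Ccnb1) had scanner log2 levels of 1.55, 1.55 and 1.59 at 0 h, 0.34, 0.15 and 0.27 at 6 h, -0.19, -0.15 and -0.37 at 12 h and 1.48, 1.50 and 1.53 at 24 h.
Table values for Ccnb1 were 1, 1.01 and 0.985 at 0 h, 0.811, 0.712 and 0.697 at 6 h, 0.381, 0.395 and 0.363 at 12 h and 0.185, 0.186 and 0.173 at 24 h.
Its 24 h samples were below all 12 h samples in the table and above them by the scanner.
Nusap1 had scanner log2 levels of 2.39, 2.38 and 2.42 at 0 h, 0.78, 0.59 and 0.66 at 6 h, 0.35, 0.31 and 0.28 at 12 h and 2.44, 2.47 and 2.44 at 24 h.
The ratios of Nusap1 were 1, 0.988 and 1.2 at 0 h, 0.826, 0.721 and 0.737 at 6 h, 0.32, 0.315 and 0.298 at 12 h and 0.141, 0.137 and 0.148 at 24 h.
In Nusap1, too, the 24 h samples were below all 12 h samples in the table and above them by the scanner.

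**Figure D4:**
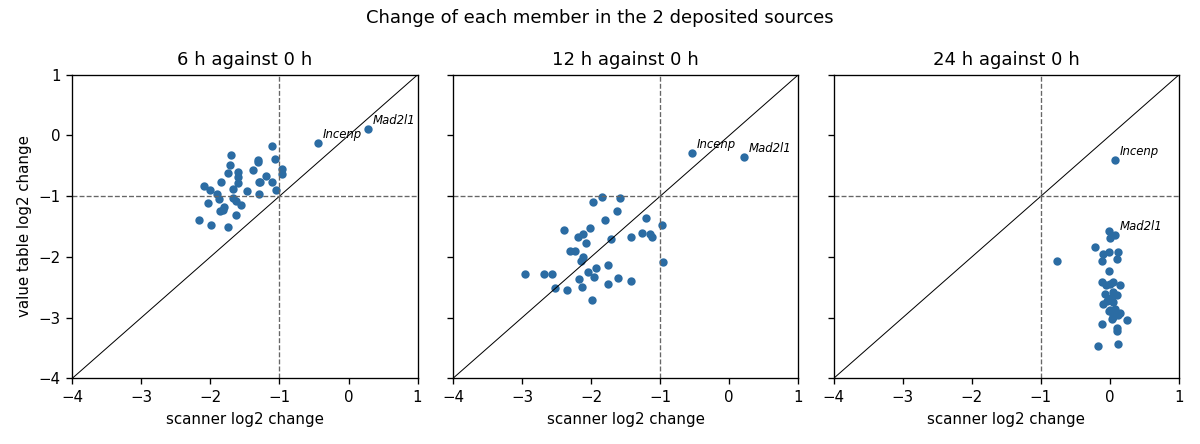
Log2 change against 0 h of 39 mitotic genes by the scanner (horizontal axis) and in the value table (vertical axis) at 6, 12 and 24 h, with a solid line for equal values and dashed lines at 2-fold lower. At 24 h the scanner changes lie between -0.76 and 0.24 and the table changes between -3.47 and -0.41.

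Further genes of the same machinery were counted from lists of textbook membership. Of 99 measured mitotic genes outside the 39, the scanner called 52 lower and 1 higher at 6 h (median -1.09) and 50 lower and 2 higher at 12 h, beside 15.9% and 16.9% of all genes called lower. The table called 27 lower and 2 higher at 6 h, 50 lower and 1 higher at 12 h, and 59 lower at 24 h, beside 11.8%, 12.1% and 13.0%. Aspm, a spindle pole protein, had scanner changes of -3.02 (SE 0.07) at 6 h and -3.55 (SE 0.07) at 12 h. Cdc25b, a phosphatase that activates Cdk1, had -2.28 (SE 0.08) at 6 h, and Fbxo5, the inhibitor EMI1 of the anaphase-promoting complex, had -1.85 (SE 0.08). The condensin subunit Ncapd2 had -1.95 (SE 0.10), near its partner Ncaph at -1.63. Zwint, a kinetochore protein, was called higher at 6 h and 12 h in both sources (1.37 and 1.20 by the scanner, 1.21 and 1.11 in the table).

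The subgroups of these lists had the following counts at 6 h, beside 15.9% of all genes called lower, and differences between them were not tested. The scanner called 21 of 31 further kinetochore and checkpoint genes lower and 19 of 28 further spindle, centrosome and cytokinesis genes. It called 3 of 16 genes of the anaphase-promoting complex and separase (18.8%, median -0.11), near the share of all genes, and 4 of 13 cohesin and condensin genes. Of 14 MuvB and E2F genes, 4 were called lower and 1 higher at 6 h, among them E2f1 (-1.59, SE 0.08) and E2f2 (-1.99, SE 0.05), activators of S-phase genes. Mybl2, which encodes B-MYB, was called in opposite directions at 12 h, 1.07 (SE 0.04) by the scanner and -2.04 (SE 0.06) in the table.

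DNA replication and S-phase genes are expressed before mitosis. Of 50 measured, the scanner called 23 lower at 6 h (46%, median -0.95) and 18 at 12 h (36%, median -0.59), beside 15.9% and 16.9% of all genes, and none higher at either time. The table called 32 at 6 h (median -1.16), 26 at 12 h (median -1.21) and 34 at 24 h (median -1.33), beside 11.8%, 12.1% and 13.0%. Between 6 h and 12 h the table median was -0.02 for these genes, with none of 50 called, and -1.03 for the 39 mitotic genes, with 22 called. For the replication genes in the same comparison the scanner called none lower and 1 higher, and whether the 2 lists differ was not tested.

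**Figure D5:**
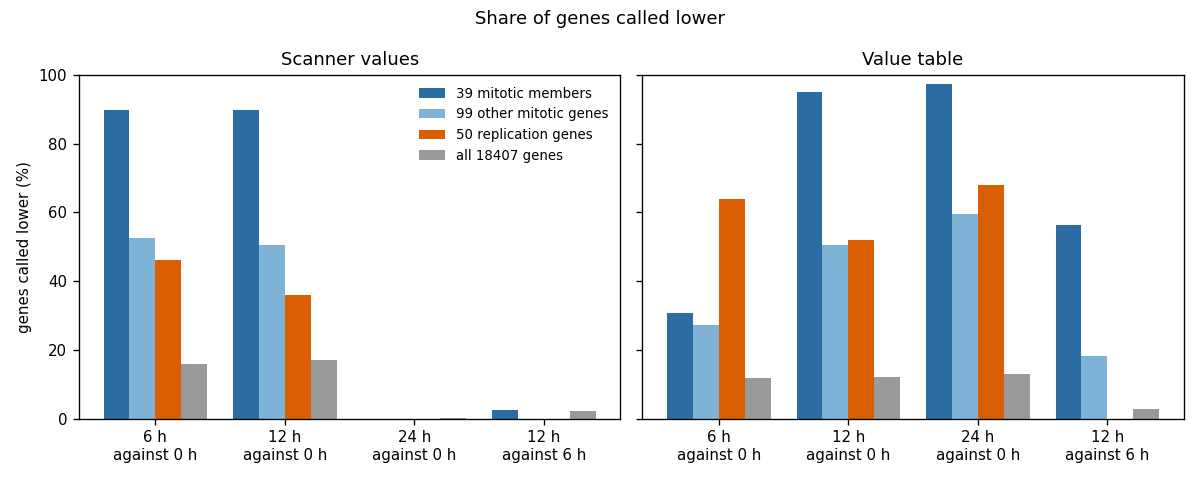
Share of genes called lower (vertical axis, percent) in 4 comparisons for the 39 mitotic genes, 99 other mitotic genes, 50 replication genes and all 18407 genes, for the scanner values and the value table. The 39 genes stand at 89.7% at 6 h and 12 h by the scanner, and at 30.8%, 94.9% and 97.4% at 6, 12 and 24 h in the table.

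Markers of other cells differed in course. Of all genes, the scanner called 15.9% lower and 10.2% higher at 6 h, and 16.9% and 13.7% at 12 h. The table called 11.8%, 12.1% and 13.0% lower at 6, 12 and 24 h, and 13.3% and 15.7% higher at 6 and 12 h. Sums below are scanner levels, in which bright markers weigh most. Of 6 stem and progenitor markers 2 had a kept probe, Cd34 and Sox4, and their summed level was 19.7 to 20.5 at 0 h, 2.68 to 2.94 at 6 h, 3.3 to 3.54 at 12 h and 20.1 to 21.3 at 24 h by the scanner, relative to the 75th percentile signal. Cd34 had log2 differences from 0 h of -2.85, -2.56 and 0.06 by the scanner and -3.19, -4.22 and -4.80 in the table at 6, 12 and 24 h. Sox4 had -1.48, -2.21 and -0.14 by the scanner, where 1 of the 2 markers was not well above background on every array at 6 h and 12 h, and -1.87, -0.44 and 0.54 in the table. The 8 of 9 measured granulocyte precursor markers summed to 83.5 to 84.4 at 0 h, 63.7 to 72.7 at 6 h, 93.5 to 109 at 12 h and 87.4 to 90.8 at 24 h. Of these 8, the scanner called 2 lower at 6 h and 0 at 12 h, and the table called 5, 7 and 8 lower at 6, 12 and 24 h. In the table, the precursor genes Mpo and Ms4a3 changed by -4.45 and -6.65 at 24 h. Summed T and NK cell markers (4 of 7 measured) were 3.43 to 3.64 at 0 h, 0.329 to 0.518 at 6 h, 0.759 to 0.908 at 12 h and 3.9 to 3.96 at 24 h by the scanner, while in the table at 6 h 1 of the 4 was called lower and 2 higher. By the scanner 1 of the 4 was called lower at 6 h and 2 at 12 h, and the 6 h log2 changes ran from -5.46 to 0.54. The 7 of 8 macrophage markers summed to 175 at 0 h on every array, 148 to 165 at 6 h, 276 to 304 at 12 h and 172 to 180 at 24 h, and at 12 h the scanner called 4 of the 7 lower and 1 higher (Fcgr1, 1.71). The 6 of 7 neutrophil markers summed to 294 to 304 at 0 h, 264 to 311 at 6 h, 287 to 315 at 12 h and 294 to 301 at 24 h. Single markers moved within that sum, as the scanner called 2 of the 6 lower at 6 h and 3 at 12 h (median -1.03). The table called 2, 2 and 4 of them lower at 6, 12 and 24 h. The 6 of 8 mast cell and basophil markers summed to 5.6 to 5.84 at 0 h, 5.36 to 6.26 at 6 h, 5.84 to 6.07 at 12 h and 5.79 to 5.91 at 24 h, and the erythroid (3 of 7) and B cell markers (3 of 6) to at most 0.918 and 1.29 at any time. At 24 h the table called 5 of the 6 mast cell and basophil markers lower and 1 higher, where 2448 of all 18407 genes were called higher. The part of these cells in the fall of the mitotic genes was not tested.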

How the data were processed

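The 12 arrays, 3 at each of 0, 6, 12 and 24 h, were read from scanner files made with Agilent Feature Extraction 9.1.3.1, which hold background-subtracted intensity on a linear scale, per the file headers. The value table that the authors deposited gives each probe as a linear ratio to its own 0 h median, no value being under 0.01. No source used here states how its columns were scaled.

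Control and outlier spots were left out, the log2 of the deposited intensity was taken, and the 75th percentile of the array was subtracted. Probes well above background on every array of at least 1 group were kept, and the brightest probe stood for a gene. By accession, 22951 probes were matched to RefSeq genes of GRCm38.p6, and other probes kept the name the array gives. Group means were fitted to all 12 arrays with limma 3.58.1 in R 4.3.3 (data.table version 1.17.8), with 8 residual degrees of freedom. The log2 ratios were fitted the same way. The scripts were tested on simulated data. The number of arrays limits the precision, and p-values measure the spread between 3 samples per group.

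In each role, samples are printed for the member with the largest and the smallest scanner change at 6 h, and for members with opposite calls. The rule also took members called in 1 source with the other of opposite sign, which at 24 h were too many, so ranges stand there. From other lists up to 3 genes per direction could be named. The members and lists were chosen with earlier results of these data known. Other settings covered background, scaling, filters, slides, replicates and samples.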

Additional observations from a re-analysis of the deposited data

How the results depend on the processing

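The direction of the members' median held at 6 h and 12 h against 0 h in both sources under every setting run. Leaving out 1 sample at a time, the scanner called 35 to 37 members at 6 h, 35 to 35 at 12 h and 0 to 0 at 24 h against 0 h, 0 to 2 at 12 h against 6 h and 35 to 35 at 24 h against 12 h. In the table the ranges were 10 to 13, 35 to 37, 38 to 38, 19 to 25 and 5 to 9. For 12 h against 6 h by the scanner, the count of 1 became 0 with normexp on the median signal (Ttk 0.26), with probes above background on every array, within slide 2 and with only the 2 groups compared, and 26 with no fold minimum. With no fold minimum the scanner count for 24 h against 0 h rose from 0 to 1, and table counts rose from 12 to 37 at 6 h against 0 h, from 22 to 38 at 12 h against 6 h and from 6 to 38 at 24 h against 12 h. Quantile normalization of the table took the latter pair to 1 and 0. Without the 24 h arrays or columns the counts at 6 h stayed at 35 and 12. The promoter count of 24 genes with both motifs became 13 in the bases before the start alone. The replicate block left the scanner counts at 35, 35 and 0 at 6, 12 and 24 h against 0 h and changed no member's call. Of 18 pairs of samples with the same number, 2 correlated above 0.1 (range -0.09 to 0.16) and 5 samples were closest to their own number. With 3 samples per group and slides that follow time, these values cannot decide whether the numbers pair the samples. Normexp on the mean signal was not run, as that column was not among those used, and the median signal stood in for it, chosen after seeing the data, like the fits without 24 h. Ttk and Hmmr rest on signal near background, and so in part does Anln, whose probe was well above background on 1 array at 6 h and 2 at 12 h.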

Other observations

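Genes that hold the cell cycle back or drive its first phase moved in both directions. Of 20 genes for CDK inhibitors, D cyclins and growth arrest, the scanner called 7 higher and 5 lower at 6 h. Of all genes it called 10.2% higher and 15.9% lower. The table called 6 higher and 4 lower, against 13.3% and 11.8% of all genes. Cdkn2b, the CDK4/6 inhibitor p15, was 6.78-fold higher by the scanner at 6 h (log2 change 2.76, SE 0.10) and 24.3-fold higher in the table. Gadd45b, a growth arrest and stress gene, was 7.78-fold higher by the scanner and 28.3-fold in the table at 6 h. Cyclin D1 (Ccnd1) was 5.7-fold lower by the scanner and 5.9-fold in the table. Cdkn2c, another CDK4/6 inhibitor (p18), was 3.37-fold lower by the scanner and 2.15-fold in the table.

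The sources differed for some of these genes at 6 h and at later times. Cyclin D2 (Ccnd2) was 38.4-fold higher at 12 h by the scanner (log2 change 5.26, SE 0.06) and 2.36-fold lower in the table (-1.24, SE 0.06). At 6 h the Ccnd2 change was 3.90 by the scanner, a call, and -0.48 in the table, not called. At 24 h the changes were 0.12 by the scanner and -3.02 in the table. Cdkn1c, the CDK inhibitor p57, was 9.92-fold higher at 12 h and 68.9-fold higher at 24 h in the table, and the scanner changes at these times were -0.45 and -0.18 (SE 0.20 each). Its calls were opposite at 6 h, lower by the scanner (-1.03, SE 0.20) and higher in the table (1.26, SE 0.12). At 24 h the scanner called none of the 20 genes against 0 h, where 0.837% of all genes were called. Timeless, a replication fork protein, was called higher at 12 h than at 6 h by the scanner (2.43, SE 0.05), and in the table the same change was -0.89 (SE 0.09). Against 0 h, Timeless at 12 h was 0.61 by the scanner and -2.64 in the table.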
